A study of Rattus norvegicus with 9 samples.

Results

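The 10 genes described here encode the SOCS proteins Socs1, Socs2, Socs3 and Cish, the Janus kinases Jak1 and Jak2, the transcription factor Stat3, its inhibitor Pias3, and the kinases Pim1 and Pim3. They were chosen by name, as every probe set whose symbol in the deposited table equals one of these genes. All 10 were on the array, with 17 of its 43685 probe sets, against 19091 different symbols in all. Where a gene had several probe sets, the one with the highest mean over the arrays is its main probe set and the others are given beside it.

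Skin of 9 Sprague Dawley rats was measured, 1 array for each animal. The CGN group of 4 rats had received carrageenan (CGN), a seaweed polysaccharide that provokes acute inflammation and pain, at 30 mg/kg body weight. Their paw swelling and pressure pain were tested at 3 hours and their skin was taken at 4 hours, per the labels' protocols. The control group of 5 rats was titled non-treated, with no injection, dose, time of testing or time of harvest recorded, and no age, sex or genotype was given for either group. What CGN did therefore cannot be told apart from what the injection, handling or paw tests did. The labels used here do not give the site of injection or the area of skin.

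Many cytokine receptors have no enzyme activity of their own and signal through Janus kinases bound to their tails. When a cytokine such as IL-6 arrives, the kinases phosphorylate the receptor and then STAT proteins, which pair, enter the nucleus and bind DNA at the letters TTCNNNGAA. Among the genes that STATs switch on are those of the SOCS proteins and Cish, which bind receptors or kinases and shut the signal down again. PIAS3 was named for its binding to activated STAT3, whose DNA binding it blocks, and PIM kinases are survival kinases whose genes are also STAT targets. In skin, IL-6 type cytokines and STAT3 act in keratinocytes during wound closure and in arriving leukocytes.

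The letters that STATs bind were searched in RefSeq promoter windows of the rat assembly GRCr8, on both strands, from 250 bases before to 50 bases after each gene's start. A window was given for 8 of the 10 genes, and those of Cish and Socs1 held a match. The stretches with a match are given here on the + strand, with the matches in capitals, since the window of Cish held several. Those of Icam1 and Irf1 stand beside them as the known STAT3 targets whose windows held a match, which was 2 of 18 with a window. The other 16 held none. Among these, named after their values were seen, Bcl3, Junb and Timp1 rose by 3.23, 2.05 and 3.81 on the log2 scale. The other probe set of Bcl3 changed by 0.21. Bcl6, Vegfa, Fgg and Muc1, also among the 16, changed by 0.16, 0.02, 0.03 and -0.10.
Cish, chr8:116850719-116850868: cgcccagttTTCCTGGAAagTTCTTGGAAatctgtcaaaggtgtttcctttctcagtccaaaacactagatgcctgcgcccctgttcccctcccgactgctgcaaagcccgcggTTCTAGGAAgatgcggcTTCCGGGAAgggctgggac
Socs1, chr10:5389354-5389413: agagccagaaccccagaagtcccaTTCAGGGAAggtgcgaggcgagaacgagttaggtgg
Icam1, chr8:27829715-27829774: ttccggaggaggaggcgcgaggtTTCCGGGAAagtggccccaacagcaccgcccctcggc
Irf1, chr10:38417765-38417824: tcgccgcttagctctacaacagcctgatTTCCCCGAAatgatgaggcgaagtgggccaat
The Cish stretch held 4 matches, in 2 close pairs that start 241, 230, 136 and 119 bases before the gene's start. The match of Socs1 starts 196 bases before its start, that of Icam1 107 bases and that of Irf1 142 bases before it. A match stood in 8.87% of all 33469 windows, and 4 or more stood in 2 of them, of which Cish was 1. The cut of 4 equals the count of Cish itself, so that rarity is no separate observation. The windows of Socs3, Jak2, Stat3, Pias3, Pim1 and Pim3 did not hold these letters, which says nothing of sites elsewhere. A form with 1 more base between its ends, the AP-1 letters TGANTCA and an NF-kB motif stood in 7.28%, 7.33% and 0.362% of all windows, and in 0 of the 8. A match is a description of letters and does not show that a factor bound there.

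Groups were compared on log2 intensity with limma over all 43685 probe sets, and a gene is called higher or lower where its adjusted p was at or under 0.05. On their main probe sets, Socs1, Socs3, Cish, Jak2 and Stat3 rose in CGN skin, Pias3 fell, and Socs2, Jak1, Pim1 and Pim3 did not pass. Among main probe sets of all 19091 symbols, 8.09% were higher and 12.4% lower, beside 5 rises and 1 fall among the 10 genes. The fall is not above that background. The genes were chosen with earlier results of these data known, so their larger share of rises is partly built in and is no test. For 5 of the genes every CGN array lay above every control, as was so for 8.44% of all symbols, and for Pias3 every CGN array lay below, as was so for 10.6%. The median log2 change was 0.40 over the 10 genes and -0.02 over all symbols. Of all 17 probe sets, 9 rose and 1 fell, where 5.30% and 7.40% of all probe sets did.

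**Figure D1:**
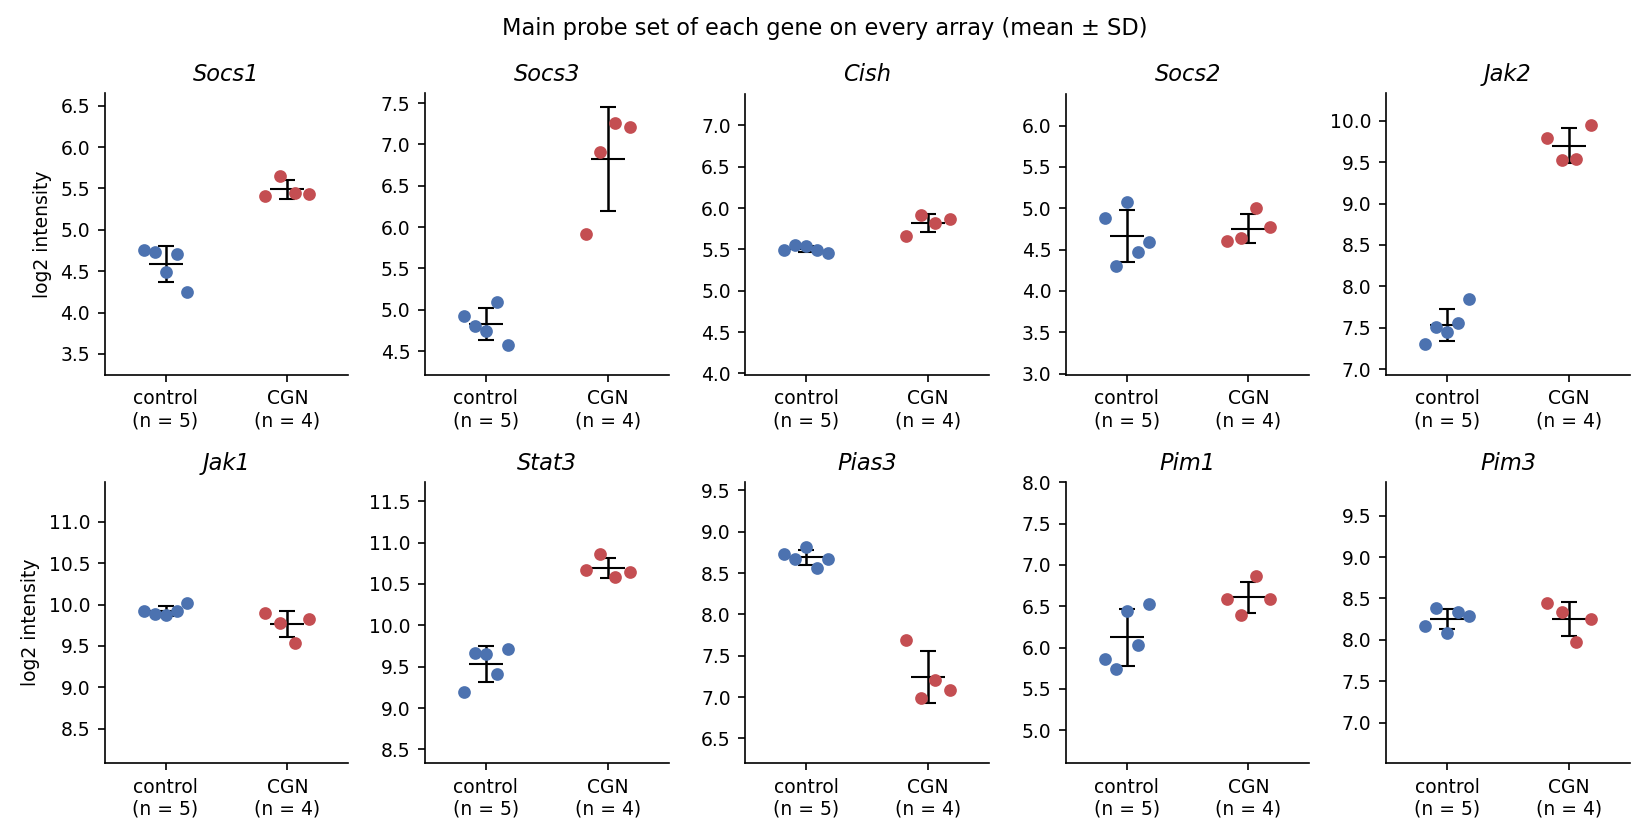
Log2 intensity (vertical axis) of the main probe set of each of the 10 genes on 5 control arrays (blue) and 4 CGN arrays (red), with mean and SD, each panel spanning the same height on the log2 scale. The CGN points of Socs1, Socs3, Cish, Jak2 and Stat3 lie above all controls, those of Pias3 lie below them, and the other panels overlap.

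Other transcripts moved with the groups, and their part in the changes of the 10 genes was not tested. The covariate given further on holds muscle markers only. Of 18 skeletal muscle markers 14 were lower and 0 higher in CGN, with a mean log2 level of 8.11 to 10.82 in controls and 5.41 to 7.57 in CGN. Of 17 neutrophil markers 13 were higher and 0 lower, with levels of 5.12 to 5.38 in controls and 6.40 to 6.91 in CGN. Monocyte and macrophage markers were higher for 6 of 12 (7.44 to 8.13 against 8.39 to 9.35), and T and NK cell markers for 5 of 9 (4.72 to 4.87 against 5.20 to 5.76). The skin's own cells moved less: 1 of 10 keratinocyte, 1 of 6 fibroblast and 1 of 7 endothelial markers rose, 1 endothelial marker fell, and 0 of 5 adipocyte markers passed limma in either direction. Keratinocyte markers lay at 11.79 to 12.29 in controls and 11.90 to 12.07 in CGN. In such whole-skin samples, more cells of a type and more RNA per cell cannot be told apart. CGN replicate 1 stood apart: on the leading principal component (59.1% of the variance) it scored 22.5, between controls at -49.3 to -37.3 and the other CGN animals at 62.1 to 64.5. Without it the 6 changes called among the 10 genes still passed, from 0.36 for Cish to 2.30 for Socs3 among those that rose and -1.60 for Pias3.

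Socs3, the inhibitor induced by IL-6 that blocks signalling from its receptor, had the largest rise of the 4 SOCS family members on main probe sets. Its intensity was 30.3, 27.9, 26.7, 34.1 and 23.8 in the controls and 60.3, 120, 153 and 148 in CGN replicates 1 to 4. All 4 CGN animals were above every control, with replicate 1 well below the other CGN animals. The geometric mean went from 28.4 to 113, a 3.99-fold rise (log2 change 2.00 ± 0.24 SE, 95% interval 1.48 to 2.52, adjusted p = 0.000230). By size of rise it ranked 290 among all probe sets. The SD within CGN, 0.63 on the log2 scale, was the widest of the 10 genes on main probe sets, against 0.20 in controls.

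Socs1, which binds Janus kinases directly and restrains interferon signalling, rose less on its probe set. It read 27.1, 26.7, 22.5, 26.05 and 19.0 in controls and 42.6, 50.3, 43.7 and 43.3 in CGN. The groups did not overlap, and the 4 CGN animals were close together. The change was 1.87-fold (log2 0.90 ± 0.12, 95% interval 0.65 to 1.16, adjusted p = 0.000427).

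Cish, a SOCS family inhibitor known as a target of STAT5, rose on both of its probe sets but by different amounts. On the main probe set it read 44.9, 46.8, 46.7, 45.0 and 43.8 in controls and 50.6, 60.5, 56.6 and 58.2 in CGN, a log2 change of 0.31 ± 0.08 (adjusted p = 0.0254). On the other probe set it read 37.1, 25.9, 27.9, 22.2 and 27.2 in controls and 64.9, 124, 54.8 and 88.8 in CGN, a change of 1.51 ± 0.22 (2.86-fold, adjusted p = 0.000838). Both probe sets separated the groups completely, so the direction was shared, while the size of the Cish rise depended on the probe set. The smaller change lost its call without control replicate 5 or CGN replicate 2, 3 or 4 (adjusted p = 0.0613, 0.0857, 0.0632 and 0.0750), and the larger one kept it without any 1 animal. Cish is also the gene whose promoter window held 4 matches to the STAT letters.

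Socs2, the family member that limits growth hormone signalling, did not pass. Its main probe set read 29.4, 19.8, 33.6, 22.1 and 24.1 in controls and 24.4, 24.9, 32.0 and 27.3 in CGN, every CGN value inside the control range. The log2 change was 0.09 ± 0.15 (95% interval -0.24 to 0.43, adjusted p = 0.812). A rise as large as that of Socs1 lies outside this interval. That holds for the signal of this probe set only, since the size of a change could depend on the probe set, as for Cish. The other probe set, at 5.41 to 7.84 on all arrays, was brighter than 5.05% of probe sets and changed by -0.04 ± 0.11 (adjusted p = 0.912).

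Among the Janus kinases, Jak2 rose and Jak1 did not pass the test. Jak2, the kinase that serves receptors for growth hormone, erythropoietin and interferon gamma, read 158, 182, 174, 188 and 229 in controls and 885, 737, 743 and 993 in CGN. Every CGN animal stood far above the highest control. The change was 4.51-fold (log2 2.17 ± 0.13, 95% interval 1.90 to 2.45, adjusted p = 7.27e-07), and it ranked 243 among all probe sets by size of rise. A separate Jak2 probe set gave nearly the same change, 2.20 ± 0.14 (adjusted p = 2.01e-06), from 53.6 to 87.8 in controls and 302 to 402 in CGN. The dimmer of the remaining Jak2 probe sets, at 6.25 to 8.86 on all arrays, changed by 0.28 ± 0.09 (adjusted p = 0.0646), and the other, at 13.6 to 25.96, by 0.51 ± 0.11 (adjusted p = 0.00956). All 4 Jak2 probe sets put every CGN animal above every control, as 5.86% of all probe sets did.

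Jak1, the kinase paired with gp130 in the IL-6 receptor, read 974, 943, 935, 970 and 1042 in controls and 955, 881, 745 and 908 in CGN. The groups overlapped through CGN replicate 1, and 3 of the CGN animals lay below all controls. The change was -0.16 ± 0.09 (95% interval -0.36 to 0.04, adjusted p = 0.333).

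Stat3, the transcription factor downstream of gp130, rose by nearly the same amount on both of its probe sets. The main one read 588, 813, 807, 683 and 838 in controls and 1629, 1868, 1538 and 1599 in CGN, a 2.24-fold rise (log2 1.16 ± 0.12, adjusted p = 6.85e-05). The other read 342, 420, 380, 387 and 452 in controls and 906, 922, 808 and 886 in CGN, a rise of 2.23-fold (1.16 ± 0.10, adjusted p = 1.36e-05). The lowest CGN animal stood far above the highest control on each.

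Pias3, the inhibitor of STAT3, was the only one of the 10 genes to fall. Its intensity was 423, 406, 451, 379 and 409 in controls and 207, 127, 148 and 136 in CGN. The controls were tightly grouped, with an SD of 0.09 on the log2 scale, and every CGN animal lay below them, replicate 1 least far. The geometric mean went from 413 to 152, which is 36.7% of the control level (log2 change -1.45 ± 0.13, 95% interval -1.74 to -1.15, adjusted p = 3.06e-05). Pias3 had 1 probe set on the array.

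The PIM kinases did not pass. Pim1 read 58.1, 53.6, 87.1, 65.6 and 92.2 in controls and 96.1, 84.2, 116 and 95.9 in CGN, so 3 of 4 CGN animals lay above every control and replicate 2 fell within their range. The change was 0.48 ± 0.17 (95% interval 0.12 to 0.85, adjusted p = 0.0878). The other Pim1 probe set read 16.2 to 26.8 in controls and 25.1 to 36.1 in CGN, with a change of 0.46 ± 0.16 (adjusted p = 0.0823). The call turned on the setting: the mean of the 2 probe sets passed (0.47 ± 0.11, adjusted p = 0.0124), as did quantile-normalised values (0.57 ± 0.16, adjusted p = 0.0368) and the fit without control replicate 5 (0.59 ± 0.16, adjusted p = 0.0398). Pim3 read 288, 334, 272, 322 and 311 in controls and 350, 323, 250 and 305 in CGN, with a change of 0.00 ± 0.11 (95% interval -0.24 to 0.24, adjusted p = 1.00).

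Because muscle transcripts differed so widely, each array's mean log2 level of the 18 muscle markers was added to limma as a covariate. It correlated with group at -0.817 over the 9 arrays, which inflated the variance of a group effect by a factor of 3.01. The groups did not overlap on it, so this fit cannot tell muscle content apart from treatment. Of all symbols 2.20% were then higher and 0.293% lower. Of the 10 genes 2 rose in that fit, Jak2 (2.16 ± 0.23, adjusted p = 0.000579) and Stat3 (1.01 ± 0.21, adjusted p = 0.0395), and Pias3 fell (-1.14 ± 0.21, adjusted p = 0.0228). Socs1 was at 0.93 ± 0.21 (adjusted p = 0.0679) and Socs3 at 1.64 ± 0.41 (adjusted p = 0.0953), both with wider errors than without the covariate. Cish was at 0.26 ± 0.15 on the main probe set (adjusted p = 0.553) and at 1.72 ± 0.38 on the other (adjusted p = 0.0604).

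**Figure D2:**
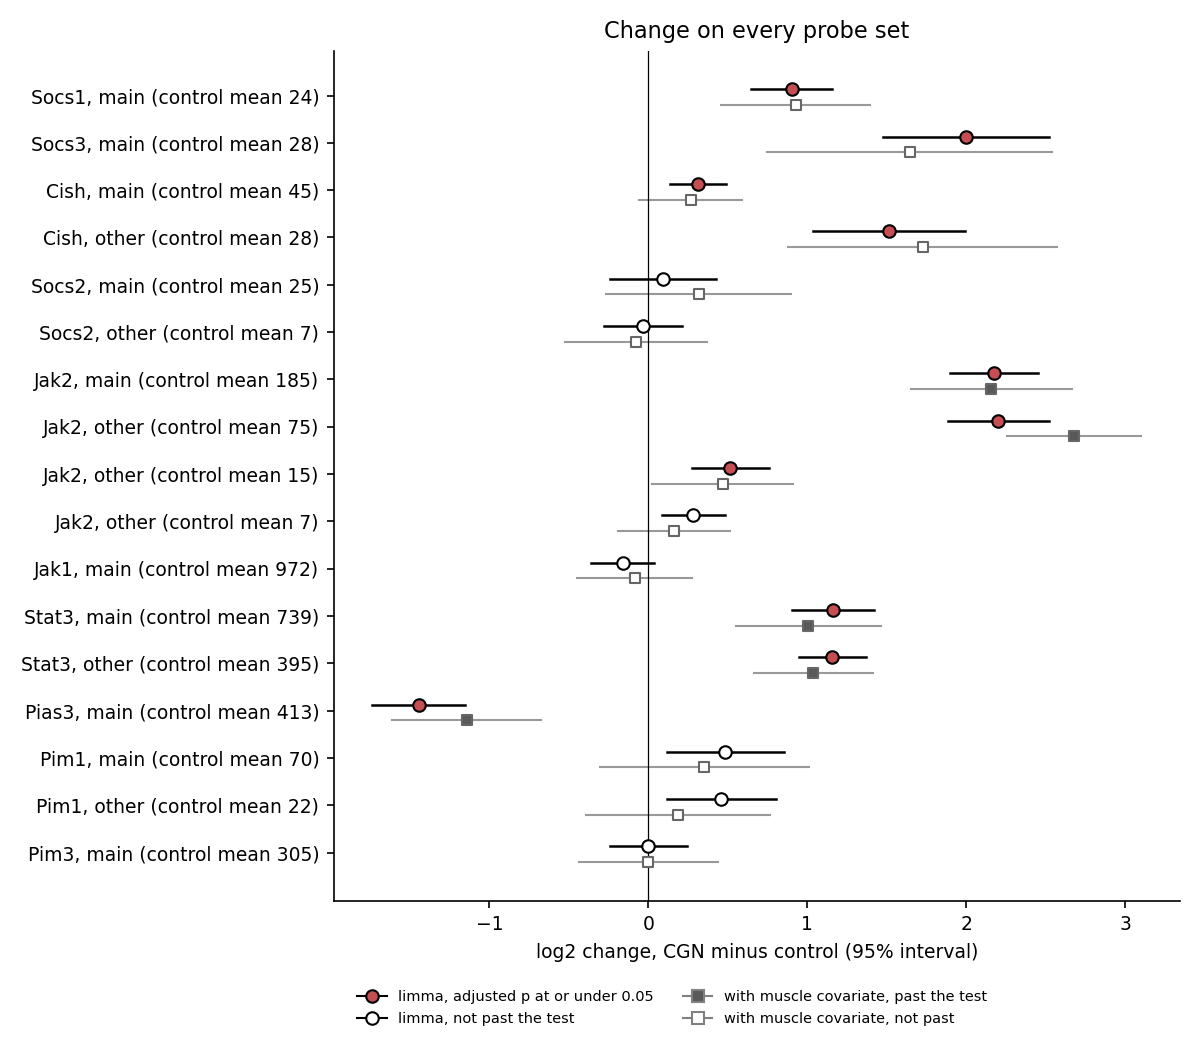
Log2 change, CGN minus control (horizontal axis), with its 95% interval for each of the 17 probe sets, labelled with the mean control intensity. Circles come from limma with group alone (red where the adjusted p was at or under 0.05) and squares from the fit with the muscle covariate (dark where it passed). Bright and dim probe sets of Jak2 and both probe sets of Cish show how far the size of a change varied within a gene, from 0.28 to 2.20 for Jak2 with group alone.

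Whether 2 genes changed unequally was tested on the log2 difference between their main probe sets on each array, by exact permutation over all splits into groups of 4 and 5, 2-sided, with p-values adjusted over 7 pairs. The smallest p this design allows is 0.0159, and the pairs that reached it have an adjusted p of 0.0222. On main probe sets Socs3 rose more than Socs1 by 1.10, more than Socs2 by 1.91 and more than Cish by 1.69 (exact adjusted p = 0.0222 for each). For Socs2 and Cish the ranges of each probe set alone already fixed this outcome. Those tests therefore add nothing to the separate limma results of the genes. The differences hold for probe sets and not for whole genes: Socs1 and Socs3 had no other probe set, and within Jak2 the change ran from 0.28 to 2.20. On the other Cish probe set, an alternative chosen after the data were seen, the difference between Socs3 and Cish was 0.48 (exact adjusted p = 0.278), and on the mean of both Cish probe sets it was 1.09 (exact adjusted p = 0.0370). The difference between Socs3 and Socs1 ran from 0.07 to 0.39 in controls and from 0.50 to 1.81 in CGN.

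Within the kinases, Jak2 moved apart from Jak1 by 2.33, and Stat3 moved apart from its inhibitor Pias3 by 2.61 (exact adjusted p = 0.0222 for both). On means of probe sets, which for Jak2 include its dim ones, the difference between Jak2 and Jak1 was 1.45 (exact adjusted p = 0.0278). The difference between Stat3 and Pias3 was 0.47 to 1.04 in controls and 2.97 to 3.88 in CGN. On every CGN array Stat3 lay above all controls and Pias3 below all controls. Their difference therefore had to separate the groups and reach the smallest p, so this test adds nothing to the calls of the 2 genes. The same held for Jak2 and Jak1 on main probe sets. Jak2 went from at most 229 in controls to at least 737 in CGN, which on the log2 scale exceeds the whole range of Jak1, 745 to 1042. Pim1 and Pim3 differed in their change by 0.48 (exact adjusted p = 0.167), and by 0.47 with an exact adjusted p of 0.0370 on the mean of Pim1's probe sets. The changes of Socs3 and Jak2 differed by -0.17 (exact adjusted p = 0.651), with a wide spread in CGN, from -3.88 to -2.28 on the scale of their difference. The sign turned on means of probe sets (0.70, exact adjusted p = 0.0794) and without CGN replicate 1 (0.16, exact adjusted p = 0.571).

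**Figure D3:**
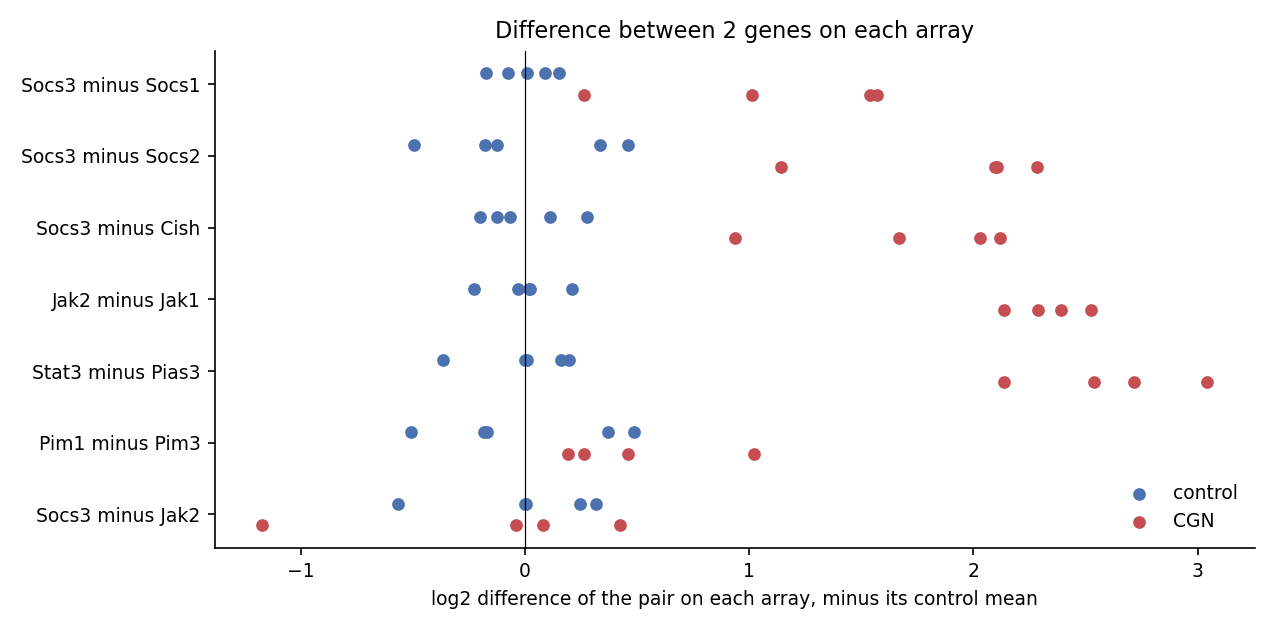
Log2 difference between the main probe sets of 2 genes on each array, minus its mean over controls (horizontal axis), for 7 pairs, with controls in blue and CGN in red. The groups are apart for the first 5 pairs and overlap for Pim1 minus Pim3 and Socs3 minus Jak2.

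The symbols whose pattern over the 9 arrays came closest to that of Socs3 were sought by the root mean square difference of log2 values centred on the control mean. Among the 5 closest were Kcna3, a potassium channel of lymphocytes (0.20), Marcks, a substrate of protein kinase C (0.22), Rhoh, a small GTPase of blood cells (0.24), and Samhd1, a nucleotide hydrolase (0.25). The log2 changes of these 4 ran from 1.78 for Rhoh to 2.00 for Samhd1. In CGN replicates 1 to 4 Kcna3 read 30.5, 60.7, 74.2 and 72.3, and Samhd1 read 67.4, 121, 219.5 and 175. Being low in CGN replicate 1, as Socs3 was, is part of what chose these symbols and is no separate observation.

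**Figure D4:**
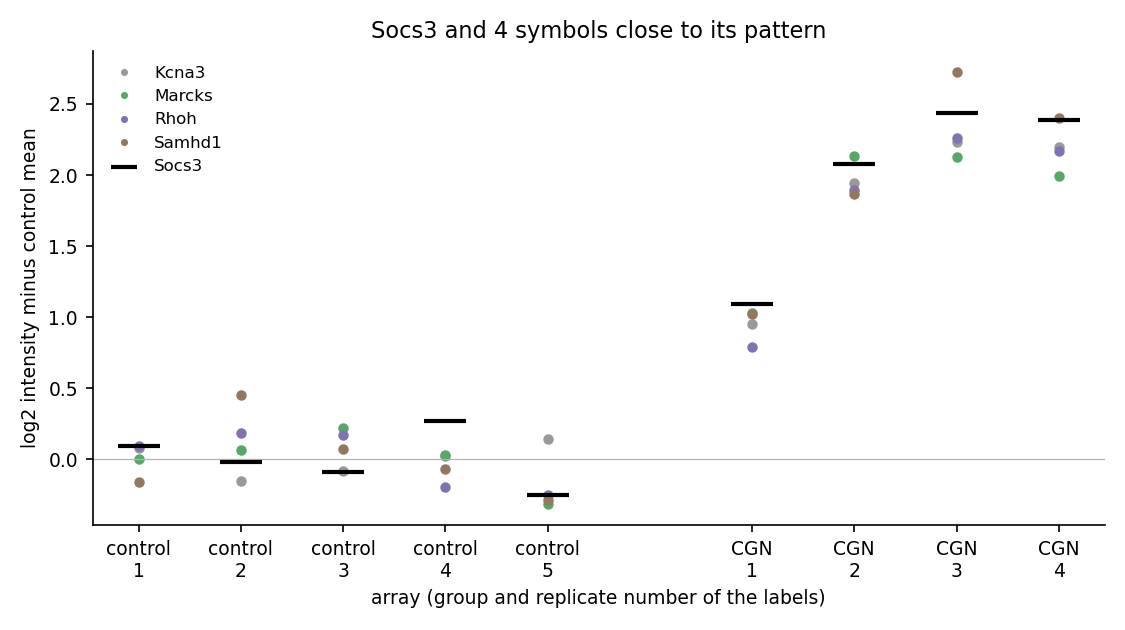
Log2 intensity minus the control mean (vertical axis) on each of the 9 arrays for Socs3 (black bars) and 4 symbols close to its pattern (points). The symbols were chosen for lying near Socs3 on these arrays, the low CGN replicate 1 included.

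Beyond the 10 genes, other members of the same families changed on both sides of zero. Of 15 measured family genes (16 listed), 6 rose and 1 fell, with a median change of 0.06. Over the 19100 current gene names from which this list and those that follow were drawn, 8.09% were higher and 12.4% lower. Socs5 rose by 0.94 ± 0.13 (adjusted p = 0.000530) and Socs4 by 1.07 ± 0.18 (adjusted p = 0.00238), both SOCS proteins linked to EGF receptor turnover. Pias4, another PIAS protein and SUMO ligase, fell by 0.54 ± 0.08 (adjusted p = 0.000841), its controls at 73.3 to 83.9 and CGN at 50.8 to 54.9. In the fit with the muscle covariate 0 of the 15 passed limma.

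Upstream, a few ligands of these receptors had very large rises and most did not pass the test. Some that did not pass, such as Ifng and Il4, read below 16.7, the lowest array median, on every array. For these, not passing does not show that there was no rise. Of 26 measured ligands (27 listed), 8 rose and 2 fell, with a median change of 0.14. Il6, which signals through gp130, Jak1 and Stat3, read 10.02 to 12.9 in controls and 4258 to 7144 in CGN, and Il10, which acts through Stat3 on macrophages, 9.11 to 12.2 in controls and 108 to 219 in CGN. Il24, a cytokine of the IL-10 family, read 13.8 to 18.02 in controls and 872 to 3225 in CGN. These 3 cytokines stood far from overlap, with log2 changes of 8.82 ± 0.15, 4.01 ± 0.19 and 6.98 ± 0.29. Il15, which activates lymphocytes through Jak1 and Jak3, fell by 1.44 ± 0.18 (adjusted p = 0.000362), and the gp130 ligand Ctf1 by 0.31 ± 0.09 (adjusted p = 0.0461). With the muscle covariate 5 ligands rose and 0 fell.

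Among receptor chains more rose than fell, and the share that fell was not above the 12.4% of all gene names. Of 29 measured chains (30 listed), 15 rose and 3 fell, with a median change of 0.33, or 8 and 0 with the muscle covariate. Il4r, the receptor for IL-4, rose by 2.05 ± 0.12 (adjusted p = 9.77e-07), the G-CSF receptor Csf3r, itself on the neutrophil marker list, by 2.24 ± 0.15 (adjusted p = 2.86e-06), and Ifngr2, a chain of the interferon gamma receptor served by Jak2, by 1.58 ± 0.11 (adjusted p = 3.51e-06). The other probe set of Ifngr2 did not pass (0.06). Il20rb, a chain of the receptor for IL-24, fell by 1.72 ± 0.23 (adjusted p = 0.000525). Prlr, the prolactin receptor, fell by 0.94 ± 0.24 (adjusted p = 0.0206) on 1 of its 3 probe sets, with the others at -0.06 and 0.01. Of the 6 chains for IL-6 and its kin on the list, given after their values were seen, Il6r rose by 1.06 ± 0.16 (adjusted p = 0.00100) and Osmr by 1.35 ± 0.11 (adjusted p = 1.09e-05). Il11ra1, the IL-11 receptor, fell by 0.67 ± 0.18 (adjusted p = 0.0291), with its groups overlapping. The shared chain gp130, Il6st, changed by 0.32 ± 0.18 (adjusted p = 0.349), Lifr by -0.018 ± 0.13 (adjusted p = 0.967) and Cntfr by -0.032 ± 0.12 (adjusted p = 0.927), and these 3 did not pass.

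Phosphatases and adaptors that act on JAK-STAT signalling, some of them brakes and some not, were counted next. Of 12 measured, 5 rose, 0 fell and 7 did not pass, with a median change of 0.34, or 2 and 0 with the muscle covariate. Ptpn1, the phosphatase that removes phosphate from Jak2, rose by 1.61 ± 0.10 (adjusted p = 1e-06) and by 1.24 on its other probe set. Ptprc, the CD45 phosphatase carried by all leukocytes, rose by 2.24 ± 0.19 (adjusted p = 1.88e-05), and Sh2b2, an adaptor that binds Jak2, by 1.54 ± 0.19 (adjusted p = 0.000249).

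Downstream, 18 of 26 genes known as STAT3 targets rose and 1 fell, with a median change of 1.38, or 14 and 0 with the muscle covariate (median 1.29). Icam1, the leukocyte adhesion molecule whose promoter stretch is shown above, went from 112 to 185 in controls to 2127 to 3960 in CGN (4.18 ± 0.20, adjusted p = 1.25e-07). Cebpd, a transcription factor of the acute phase, rose by 3.48 ± 0.16 (adjusted p = 1.25e-07), and Irf1, shown above as well and named after its value was seen, by 2.53 ± 0.27 (adjusted p = 0.000105). The cyclin Ccnd1 fell by 0.71 ± 0.16 (adjusted p = 0.0115), and its other probe set did not pass (-0.29). Many of these genes respond to other factors too, and S100a8, S100a9 and Lcn2 on this list are also on the neutrophil list, as Il10 is on the ligand list. Of 6 measured growth hormone and STAT5 targets, only the cell cycle inhibitor Cdkn1a rose (1.09 ± 0.11, adjusted p = 5.3e-05). The median of that list was 0.08.

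**Figure D5:**
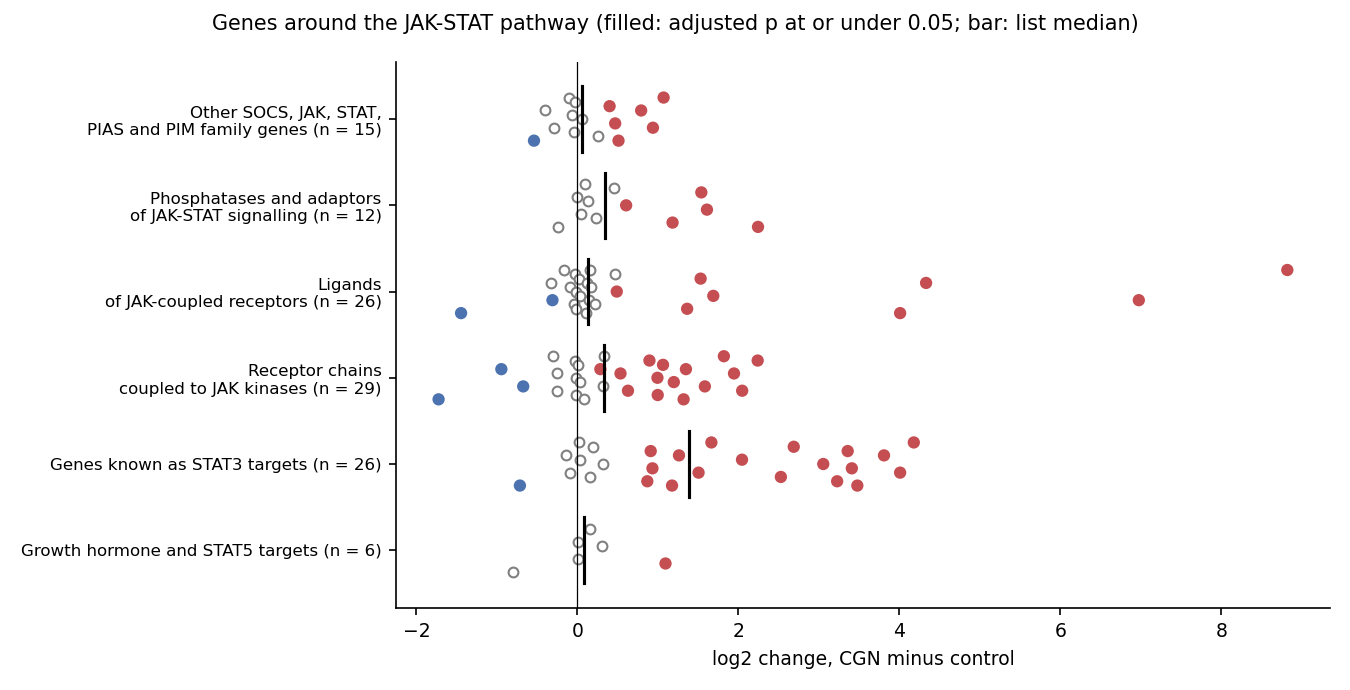
Log2 change, CGN minus control (horizontal axis), of every measured gene in 6 lists around the JAK-STAT pathway, 1 main probe set a gene. Filled points passed the limma test (red higher, blue lower), open points did not, and the bar is the list median, which was 1.38 for STAT3 targets and between 0.06 and 0.34 for the other 5 lists.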

How the data were processed

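The authors deposited RMA intensities (a method that corrects background, equalizes arrays and summarizes probes), per the submitters' processing notes. No version was given. Linear values ran from 4.07 to 27404, with medians of 16.7 to 17.8 per sample. They were read by sample from the deposited value table, which equalled the table with gene names in all 8 columns matched by name. The remaining CGN column carries the number 5, which no CGN title has, and equalled the sample titled CGN replicate 4. Titles were followed here. No detection calls or scan dates were used here, so background and batch were not examined, and the number of arrays limits the precision. Levels of different probe sets were not compared.

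Intensities were taken to log2 with no pseudocount or filter. Tests used limma (version 3.58.1, under R 4.3.3; lmFit and eBayes, 2-sided), adjusted by Benjamini-Hochberg over all 43685 probe sets, and scipy 1.17.1 for exact permutation. Changes are CGN minus control ± SE. List genes were matched by current RefSeq symbol (GRCr8), on the probe set with the highest mean. The genes and lists were chosen with earlier results of these data known. Named were the 10 genes, up to 3 genes per list with the smallest adjusted p, up to 2 past the threshold in a list's rarer direction, and the 5 symbols closest to Socs3, of which 1 is not reported here. On data simulated for this comparison, with 200 of 43685 probe sets changed, limma recovered 32% of log2 changes of 0.5, 92% of 1 and 98% of 2 and of 3, with 6 false calls. The simulated noise was independent between probe sets, and far fewer were changed than the 2314 higher and 3231 lower called in the data. Those rates therefore need not hold for the data. Tried as alternatives were array medians set equal, quantile normalization, a filter on the dimmest 30% of probe sets, 1 or the mean of probe sets per symbol, limma's trend and robust options, a plain linear model, array weights, a replicate block, the muscle covariate and leaving out each animal.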

Additional observations from a re-analysis of the deposited data

Results flagged for a closer look

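Of 34 groups of arrays (17 probe sets in each of 2 groups), 2 held an animal set apart from the others of its group, by a gap to its nearest neighbour above Dixon's limit at 95%. Chance gives about 1 in 20 such groups. CGN replicate 2 read 50.28 for Socs1, with the other CGN animals at 42.6 to 43.7. Control replicate 4 read 53.61 for Jak2 on the second brightest probe set, with the other controls at 77.2 to 87.8. Without CGN replicate 2 the Socs1 change was still past the test.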

How the results depend on the processing

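Over all probe sets 2314 were higher and 3231 lower. A plain linear model called 1509 and 1615, the muscle covariate 549 and 76, and leaving out 1 animal 1778 to 2625 and 2047 to 4028. Of the 10 genes 2 were higher with the muscle covariate, 4 with trend and robust options, 6 on quantile-normalised values and on means of probe sets, and 4 to 5 without 1 animal (4 without CGN replicate 2, 3 or 4), while 1 was lower in every setting run. Without control replicate 5 the count stayed at 5 although Cish lost its call, because Pim1 passed there. Jak2, Stat3 and Pias3 on their main probe sets kept direction and call in every setting run, and Socs1 and Socs3 in all but the muscle covariate. Cish on its main probe set also lost its call with trend and robust options (adjusted p = 0.0885).

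Control and CGN animals shared replicate numbers, but same-numbered animals did not deviate together (correlations of -0.297, 0.0729, -0.0136 and -0.0323), so the numbers were not taken as pairs. These numbers are those of the titles, and the deposited table numbers the fourth CGN animal 5, so its number is uncertain. With a replicate block on the titles' numbers, in which control replicate 5 has no partner, 1636 probe sets were higher and 1762 lower, Cish did not pass (0.30, adjusted p = 0.128) and Pim1 did (0.59, adjusted p = 0.0166).

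Between pairs, Pim1 minus Pim3 reached 0.47 on means of probe sets and passed, Jak2 minus Jak1 was 1.45 and Socs3 minus Cish 1.09 there, and both still passed. Socs3 minus Jak2 turned to 0.70 on means of probe sets and to 0.16 without CGN replicate 1, and it did not pass in either. Socs3 minus Cish was 0.48 on the other Cish probe set, chosen after the data were seen, and did not pass. Without 1 animal the differences ran from 0.94 to 1.37 for Socs3 minus Socs1, 1.78 to 2.16 for Socs3 minus Socs2, 1.54 to 1.94 for Socs3 minus Cish, 2.27 to 2.40 for Jak2 minus Jak1, 2.46 to 2.77 for Stat3 minus Pias3, 0.31 to 0.61 for Pim1 minus Pim3 and -0.38 to 0.16 for Socs3 minus Jak2. Among values that did not pass, Pim3 went to -0.018 with median centring, to -0.043 with array weights and ranged from -0.066 to 0.094 without 1 animal, and the dim Socs2 probe set ranged from -0.094 to 0.052. The cause of these turns was not tested. Dim probe sets limit what can be said of Socs2's second probe set and of the dimmest of Jak2.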
